A study of Mus musculus with 6 samples.

Results

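The genes described here encode the respiratory chain and ATP synthase of mitochondria, from both genomes. They were all genes of the 6-library table whose symbol begins with Nduf, Cox4 to Cox8, Uqcr, Atp5, mt-Nd, mt-Co, mt-Cytb or mt-Atp, or is Sdha, Sdhb, Sdhc or Sdhd, a rule that found 107 of 41386 genes. Of these, 94 lie in the nuclear genome and 13 in the mitochondrial genome. The nuclear members comprised 74 subunits, 9 assembly factors, 8 isoforms known mainly from other tissues, 1 supercomplex factor (Cox7a2l) and 2 pseudogenes of Atp5l, which the rule on symbols kept. Thymocytes of the fourth double-negative stage (DN4), which lies between beta selection and the double-positive stage, were taken from adult C57BL/6 mice of genotype Gata3(g/+), with a GFP reporter allele of the transcription factor gene Gata3 over a wild-type allele. The cells were sorted into a GFP-positive group and a GFP-negative group of 3 RNA-seq libraries each, and both groups carried the same genotype. Whether each library had its own animal is not stated in the labels, and the p-values below then reflect only how far these libraries spread, which may be technical.

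Oxidative phosphorylation moves electrons from NADH and succinate through complexes I to IV to oxygen, and complex V, the ATP synthase, uses the resulting proton gradient to make ATP. Complex II is wholly nuclear encoded, whereas complexes I, III, IV and V join nuclear subunits, imported from the cytosol, to a few core subunits made inside the mitochondrion. Mitochondrial mRNAs are cut from long transcripts of both strands of a circular genome, and their supply depends on nuclear factors for transcription, processing and stability. Thymocytes divide rapidly after beta selection and then rest, and T cells are known to enlarge their mitochondria as they grow.

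Values are FPKM, fragments divided by transcript length and by library size, so levels of different genes are compared per length. The sources used here do not state the reads per library, and counting intervals are left out. Fold changes are GFP-positive over GFP-negative on the log2(FPKM + 0.5) scale with standard errors, and a gene was called at an adjusted p below 0.05 in limma over all 11465 genes tested. Gata3 had 64.2, 62.7 and 62.98 FPKM in GFP-positive libraries 1 to 3, against 20.8, 24.3 and 22.3 FPKM in GFP-negative libraries 1 to 3. Every GFP-positive library was higher. Summed levels of 6 double-positive markers were 309 to 343 FPKM in GFP-positive cells and 2058 to 3085 FPKM in GFP-negative cells, and those of 3 gamma-delta T cell markers were 47.5 to 53.5 FPKM in GFP-positive cells and 6.88 to 14.8 FPKM in GFP-negative cells. The 6 T lineage markers summed to 1056 to 1144 FPKM in GFP-positive cells and 1425 to 1739 FPKM in GFP-negative cells. All 3 B cell markers lay below 1 FPKM in every library, and myeloid markers summed to 0.156 to 0.280 FPKM in GFP-positive cells and 2.01 to 2.57 FPKM in GFP-negative cells. Most of the latter sum was Itgam, at 2.37, 1.75 and 1.52 FPKM in GFP-negative libraries 1 to 3, while the myeloid markers Lyz2 and Csf1r lay below 1 FPKM in every library. Proliferation markers (6 genes) summed to 704 to 750 FPKM in GFP-positive cells and to 183, 200 and 343 FPKM in GFP-negative libraries 1, 2 and 3. Library 1 had the lowest value of its group for 59 of 74 subunits in GFP-positive cells and for 64 in GFP-negative cells. GFP-negative library 3 had the highest value of its group for 52 subunits. This order was not limited to the respiratory genes. Over 9881 nuclear protein-coding genes tested, the mean log2(FPKM + 0.5) was 3.42, 3.51 and 3.54 in GFP-positive libraries 1 to 3. In GFP-negative libraries 1 to 3 it was 3.50, 3.54 and 3.62.

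The promoters of a few nuclear subunits are shown first, because these genes are scattered over 18 chromosomes and most were called higher. Each window runs from 250 bases before to 50 bases after the RefSeq start of the gene (GRCm38.p6, 5′ to 3′ on the gene's strand). Capitals mark exact matches, on either strand, to GCATGCG, the core of the palindrome bound by NRF1, to CCGGAAG, a site of ETS factors such as the GA-binding protein, or to GATGGCG, a site of YY1. Atp5g2 (chr15:102670998-102671297, minus strand) was among the subunits with the largest fold changes, and Uqcrc1 (chr9:108936398-108936697, plus strand) lay below their median. Cox6a1 (chr5:115348909-115349208, minus strand) holds all 3 motifs, and Ndufs3 (chr2:90904672-90904971, minus strand) had the smallest fold change of any subunit. These promoters were picked by hand and are not a sample of the subunits. The NRF1 core is in 3 of them, against 17.5% of the subunits with a window, so they do not show whether it goes with fold change.
Atp5g2: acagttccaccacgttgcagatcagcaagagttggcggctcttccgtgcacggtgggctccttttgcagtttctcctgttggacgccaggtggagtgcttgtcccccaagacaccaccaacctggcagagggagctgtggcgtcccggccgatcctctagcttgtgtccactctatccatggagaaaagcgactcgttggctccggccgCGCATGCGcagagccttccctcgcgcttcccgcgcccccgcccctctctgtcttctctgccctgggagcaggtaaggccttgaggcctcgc
Uqcrc1: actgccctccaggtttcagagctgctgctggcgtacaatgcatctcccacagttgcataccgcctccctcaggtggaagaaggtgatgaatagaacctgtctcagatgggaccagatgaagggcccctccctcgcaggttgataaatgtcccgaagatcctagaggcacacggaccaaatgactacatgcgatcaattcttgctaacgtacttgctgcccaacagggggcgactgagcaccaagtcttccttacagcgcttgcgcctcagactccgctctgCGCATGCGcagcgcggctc
Cox6a1: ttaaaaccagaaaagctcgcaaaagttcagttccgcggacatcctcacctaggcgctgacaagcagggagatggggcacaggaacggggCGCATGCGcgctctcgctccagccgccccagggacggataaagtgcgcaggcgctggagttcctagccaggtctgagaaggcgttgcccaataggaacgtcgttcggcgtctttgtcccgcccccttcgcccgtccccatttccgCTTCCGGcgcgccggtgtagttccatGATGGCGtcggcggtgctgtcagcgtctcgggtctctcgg
Ndufs3: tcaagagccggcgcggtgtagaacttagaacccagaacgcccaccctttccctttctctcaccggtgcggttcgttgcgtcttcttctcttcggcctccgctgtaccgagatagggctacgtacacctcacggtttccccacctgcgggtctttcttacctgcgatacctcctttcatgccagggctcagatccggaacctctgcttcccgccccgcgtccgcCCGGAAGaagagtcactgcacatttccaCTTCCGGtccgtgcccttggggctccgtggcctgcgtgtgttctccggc

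Windows were found for 76 of 94 nuclear members and for 63 of the 74 subunits. The NRF1 core was present for 11 of these 63 subunits (17.5%), the 3 shown and Atp5j, Atp5k, Atp5l, Ndufa11, Ndufa6, Ndufa8, Sdhb and Uqcr11, against 8.15% of 8032 tested protein-coding genes. A second part of the NRF1 site, TGCGCA, which can overlap the core, was present for 28.6% of the subunits and 17.6% of the protein-coding genes. The ETS letters were present for 25.4% of the subunits and 23.4% of the protein-coding genes, and the YY1 letters for 14.3% of the subunits and 8.43% of the protein-coding genes. For comparison, TATAAA was present for 7.94% of the subunits and 7.98% of the protein-coding genes, and the E box CACGTG, a site of Myc, for 9.52% of the subunits and 12.3% of the protein-coding genes. A match is a description of these letters in these windows, and whether fold change goes with a match was not tested.

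Nuclear genes for the subunits were higher in GFP-positive cells as a body. Of 74 subunits, 65 were called higher and 0 lower, where 24.4% of all genes tested were called higher, 29.8% lower and 54.2% in either direction. Their median log2 fold change was 0.76, or 1.69-fold, against -0.08 over all genes tested, and every one of the 74 had a positive value, from 0.041 for Ndufs3 to 1.39 for Ndufa12. The median over subunits was 59.4, 71.2 and 69.8 FPKM for GFP-positive libraries 1 to 3, against 35.7, 40.5 and 45.2 FPKM in GFP-negative libraries 1 to 3. In 69 of 74 subunits all GFP-positive values exceeded all GFP-negative values, where 28.7% of all genes did so. Differences of at least 2-fold were fewer, with 11 of 74 subunits called and at least 2-fold higher, against 8.59% of all genes. In the authors' deposited table of 6 libraries 61 of the 74 subunits had a q below 0.05 and a higher GFP-positive value, where 23.4% of the genes in that table did.

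In bulk RNA a larger share of cells with high levels and more RNA per cell cannot be told apart. The 6 proliferation markers, all called higher with a median log2 fold change of 1.74, moved with the subunits, and within the GFP-negative group both were highest in library 3; the part of proliferation in the difference was not tested. Without GFP-negative library 3 the subunit median was 0.80, without GFP-negative library 1 it was 0.67 and without GFP-positive library 1 it was 0.83. In the authors' deposited table of 4 libraries, which leaves out library 1 of both groups, limma on the FPKM gave 0.65 with 61 subunits called higher. Of the 11406 genes tested there, 2155 were called higher and 2660 lower. By the authors' own q in that table fewer passed, with 46 of the 74 subunits below 0.05. The share over all genes by that q was not taken. Quantile normalization moved the median of all genes from -0.08 to 0.06 and left the subunit median at 0.72. Annotated genes overlapped 28 subunits and near-identical pseudogenes existed for 18. Of the 37 subunits with neither, 32 were called higher, with a median of 0.75, where 24.4% of all genes tested were called higher.

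**Figure D1:**
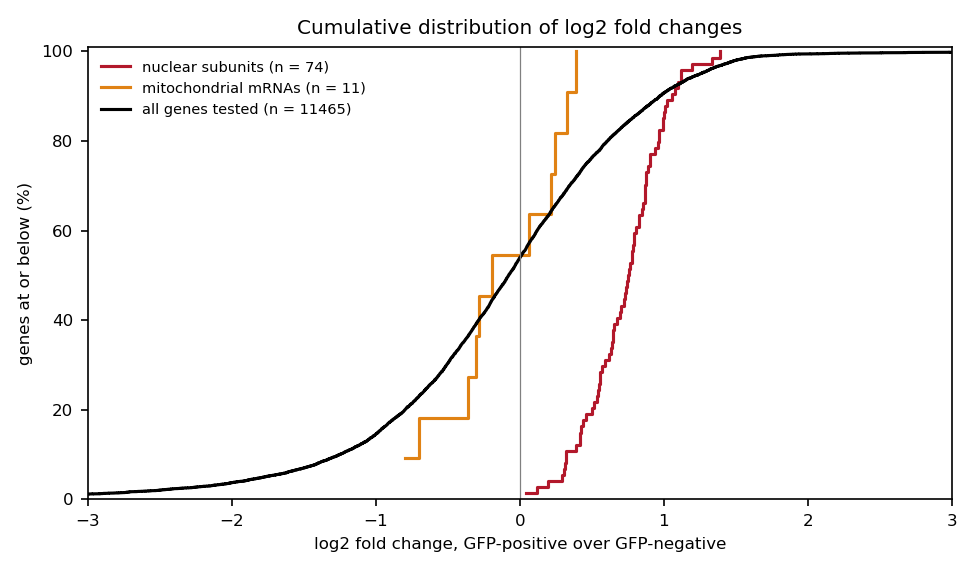
Cumulative share of genes (y axis, percent) at or below each log2 fold change of GFP-positive over GFP-negative cells (x axis, cut at -3 and 3) for 74 nuclear subunits, 11 mitochondrial mRNAs and all 11465 genes tested. The curve of the nuclear subunits lies wholly right of 0 with its median at 0.76, while the mitochondrial mRNAs span 0 with a median of -0.20.

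Complex I, the NADH dehydrogenase, is the largest of the complexes, and 30 of its 36 nuclear subunits rose, with a median log2 fold change of 0.63. Here and below, counts of genes that rose or fell are counts of genes called higher or lower. Counts of calls for each complex, here and below, are to be read against all genes tested, of which 24.4% were called higher and 29.8% lower. The largest change was that of Ndufa12 (chromosome 10, positions 94198720 to 94221443, plus strand of GRCm38), an accessory subunit of the NADH-oxidizing arm. It had 60.5, 71.9 and 70.2 FPKM in GFP-positive libraries 1 to 3, against 17.004, 26.7 and 36.01 FPKM in GFP-negative libraries 1 to 3 (log2 fold change 1.39 ± 0.24; limma, adjusted p = 0.00175). The groups were well apart, with GFP-negative library 3 the nearest to the GFP-positive ones. Ndufc2 (chromosome 7, positions 97400003 to 97407802, plus strand), an accessory subunit of the membrane arm, had 74.95, 79.2 and 84.9 FPKM in GFP-positive libraries against 36.5, 39.8 and 43.1 FPKM in GFP-negative libraries (log2 fold change 0.99 ± 0.11; limma, adjusted p = 0.000213), with little spread within either group. Ndufb9 had 47.3, 80.5 and 64.5 FPKM in GFP-positive libraries, against 22.95, 33.4 and 39.4 FPKM in GFP-negative libraries (log2 fold change 1.0 ± 0.24; limma, adjusted p = 0.00832). GFP-positive library 1 was the lowest of its group for Ndufb9, but still above every GFP-negative library. Ndufab1, the mitochondrial acyl carrier protein that is both a complex I subunit and part of fatty acid synthesis, had 69.4, 85.7 and 69.4 FPKM in GFP-positive libraries, against 21.6, 42.9 and 51.6 FPKM in GFP-negative libraries (log2 fold change 1.03 ± 0.30; limma, adjusted p = 0.0251), and lost its call without GFP-positive library 1, 2 or 3 (log2 fold change 1.08, 0.92 and 1.08).

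The Ndufb genes, which encode accessory subunits of the membrane arm, rose in 10 of 10 cases with a median of 0.80. Core subunits are the conserved ones that carry the flavin and the iron-sulfur clusters or bind quinone. Of these, 4 of 7 were called higher, with a median of 0.62, against 26 of 29 accessory subunits with a median of 0.65. Every core and every accessory subunit had a positive log2 fold change. Ndufv1, which binds NADH and the flavin, had a log2 fold change of 0.76, its partner Ndufv2 0.70, and the iron-sulfur subunits Ndufs7 and Ndufs8 0.75 and 0.62. Among the core genes not called, Ndufs3, next to the quinone site, had 35.8, 44.7 and 43.5 FPKM in GFP-positive libraries and 38.4, 40.6 and 41.02 FPKM in GFP-negative libraries (log2 fold change 0.041 ± 0.12; limma, adjusted p = 0.791). Its GFP-negative values lay inside the range of the GFP-positive ones. Ndufs1, the largest iron-sulfur subunit, had 33.1, 39.7 and 38.4 FPKM in GFP-positive libraries and 28.4, 32.5 and 36.4 FPKM in GFP-negative libraries (log2 fold change 0.19 ± 0.13; limma, adjusted p = 0.241), and here too the groups overlapped. Ndufs4, an accessory subunit whose loss in mice gives a Leigh-like encephalopathy, had 25.8, 23.4 and 23.2 FPKM in GFP-positive libraries and 18.9, 25.1 and 22.9 FPKM in GFP-negative libraries (log2 fold change 0.12 ± 0.13; limma, adjusted p = 0.465). The accessory subunits Ndufv3 (0.30) and Ndufa6 (0.32) were not called either. Called but least steady were Ndufa1 (0.42) and Ndufa11 (0.39), which lost their calls in 8 and 7 of 17 alternatives; for Ndufa1 these included leaving out any library except GFP-positive library 2 (log2 fold change 0.24 to 0.49), and for Ndufa11 any except GFP-positive library 1 (0.33 to 0.43).

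Complex II, the succinate dehydrogenase, is the enzyme shared with the citric acid cycle, and 3 of its 4 subunits rose. Sdhd, a membrane anchor, had 58.3, 78.96 and 71.1 FPKM in GFP-positive libraries, against 25.4, 41.2 and 40.9 FPKM in GFP-negative libraries (log2 fold change 0.97 ± 0.20; limma, adjusted p = 0.00373), and its partner Sdhc had a log2 fold change of 0.79. The iron-sulfur subunit Sdhb had one of 0.78. Sdha, the flavoprotein that binds succinate, had 64.4, 70.6 and 72.9 FPKM in GFP-positive libraries and 44.6, 57.3 and 67.4 FPKM in GFP-negative libraries (log2 fold change 0.31 ± 0.15; limma, adjusted p = 0.118). GFP-negative library 3 overlapped the GFP-positive group for Sdha, and without it the log2 fold change was 0.45 and called.

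In complex III, the cytochrome c reductase, 7 of 8 subunits rose, with a median of 0.69. Uqcr11 had the largest change, with 107, 127 and 136 FPKM in GFP-positive libraries, against 46.7, 60.03 and 80.1 FPKM in GFP-negative libraries (log2 fold change 1.01 ± 0.19; limma, adjusted p = 0.0024). Uqcrq, Uqcrb and Uqcr10 had log2 fold changes of 0.97, 0.91 and 0.74. Both core proteins and the Rieske iron-sulfur protein, which passes electrons on to cytochrome c1, changed less, with 0.65 for Uqcrc1, 0.59 for Uqcrc2 and 0.64 for Uqcrfs1. Uqcrh, the hinge protein, was not called, at 112, 129 and 130.2 FPKM in GFP-positive libraries and 98.3, 109 and 94.7 FPKM in GFP-negative libraries (log2 fold change 0.29 ± 0.12; limma, adjusted p = 0.0625). Its groups did not overlap, but the gap between them was small. Cytochrome c1 itself, the Cyc1 gene that the rule on symbols does not take in, had 58.96, 86.1 and 77.4 FPKM in GFP-positive libraries, against 33.2, 39.3 and 39.5 FPKM in GFP-negative libraries (log2 fold change 0.97 ± 0.16; limma, adjusted p = 0.000988).

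Complex IV, the cytochrome c oxidase, had all its nuclear subunits called higher, 11 of 11 with a median of 0.91, Ndufa4 included, which carries a complex I name but belongs to complex IV. Cox5a (chromosome 9, positions 57521274 to 57532426, plus strand), which binds a thyroid hormone metabolite in the isolated enzyme, had 112, 123 and 121 FPKM in GFP-positive libraries, against 48.4, 55.5 and 59.7 FPKM in GFP-negative libraries (log2 fold change 1.12 ± 0.12; limma, adjusted p = 0.00015). Cox5b, a zinc-binding subunit, had 117, 136 and 132 FPKM in GFP-positive libraries, against 45.2, 63.6 and 73.7 FPKM in GFP-negative libraries (log2 fold change 1.10 ± 0.18; limma, adjusted p = 0.000987). Both groups were tight for Cox5a, and GFP-negative library 1 lay lowest for both genes. Cox8a, Ndufa4, Cox6c and Cox7a2 followed with log2 fold changes of 1.08, 1.0, 0.96 and 0.91, and Cox7b, Cox7c, Cox6a1 and Cox6b1 with 0.89, 0.83, 0.80 and 0.68. Cox4i1, the general form of the regulatory subunit that binds ATP, had the smallest change, with 169.9, 200.3 and 208 FPKM in GFP-positive libraries against 129.9, 148 and 141 FPKM in GFP-negative libraries (log2 fold change 0.46 ± 0.12; limma, adjusted p = 0.0122). Its call was lost under quantile normalization (log2 fold change 0.24) and without GFP-positive library 2 or 3 (log2 fold change 0.43 and 0.40), and its q in the authors' deposited table of 6 libraries was 0.642.

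Several complex IV subunits have a second form used in one tissue, and in these cells the general forms were by far the more abundant. Cox4i2, of lung, reached at most 0.376 FPKM in any library, and the heart and muscle forms Cox6a2 and Cox8b at most 0.930 and 0.547 FPKM, where the lowest value of their general forms Cox4i1, Cox6a1 and Cox8a was 73.4 FPKM, that of Cox8a in GFP-negative library 1. Ndufa4l2, a form induced by low oxygen, stayed at or below 0.164 FPKM, and the testis forms Cox7b2 and Cox8c were listed at 0 throughout. Cox7a1, the heart and muscle form of subunit 7a, was detected at a low level, at 2.44, 3.10 and 2.47 FPKM in GFP-positive libraries against 0.543, 0.398 and 1.64 FPKM in GFP-negative libraries (log2 fold change 1.32 ± 0.34; limma, adjusted p = 0.0104); in the authors' deposited table of 4 libraries, fitted the same way, it had a log2 fold change of 1.20 and was not called. The q of Cox7a1 in the authors' deposited table of 6 libraries was 0.211. Its level was far below that of Cox7a2. Cox7a2 had 85.2, 94.1 and 88.2 FPKM in GFP-positive libraries and 34.9, 52.8 and 57.5 FPKM in GFP-negative libraries. Cox6b2, of testis and also low, had 5.62, 3.65 and 7.34 FPKM in GFP-positive libraries and 5.21, 3.43 and 8.06 FPKM in GFP-negative libraries (log2 fold change 0.018 ± 0.32; limma, adjusted p = 0.967), with full overlap. Cox7a2l, which joins complexes III and IV into supercomplexes and of which C57BL/6 mice carry a shortened form, had 82.7, 88.98 and 88.4 FPKM in GFP-positive libraries and 91.3, 91.9 and 92.7 FPKM in GFP-negative libraries (log2 fold change -0.086 ± 0.10; limma, adjusted p = 0.497). Its GFP-positive values all lay just below the GFP-negative ones, unlike those of any nuclear subunit.

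**Figure D2:**
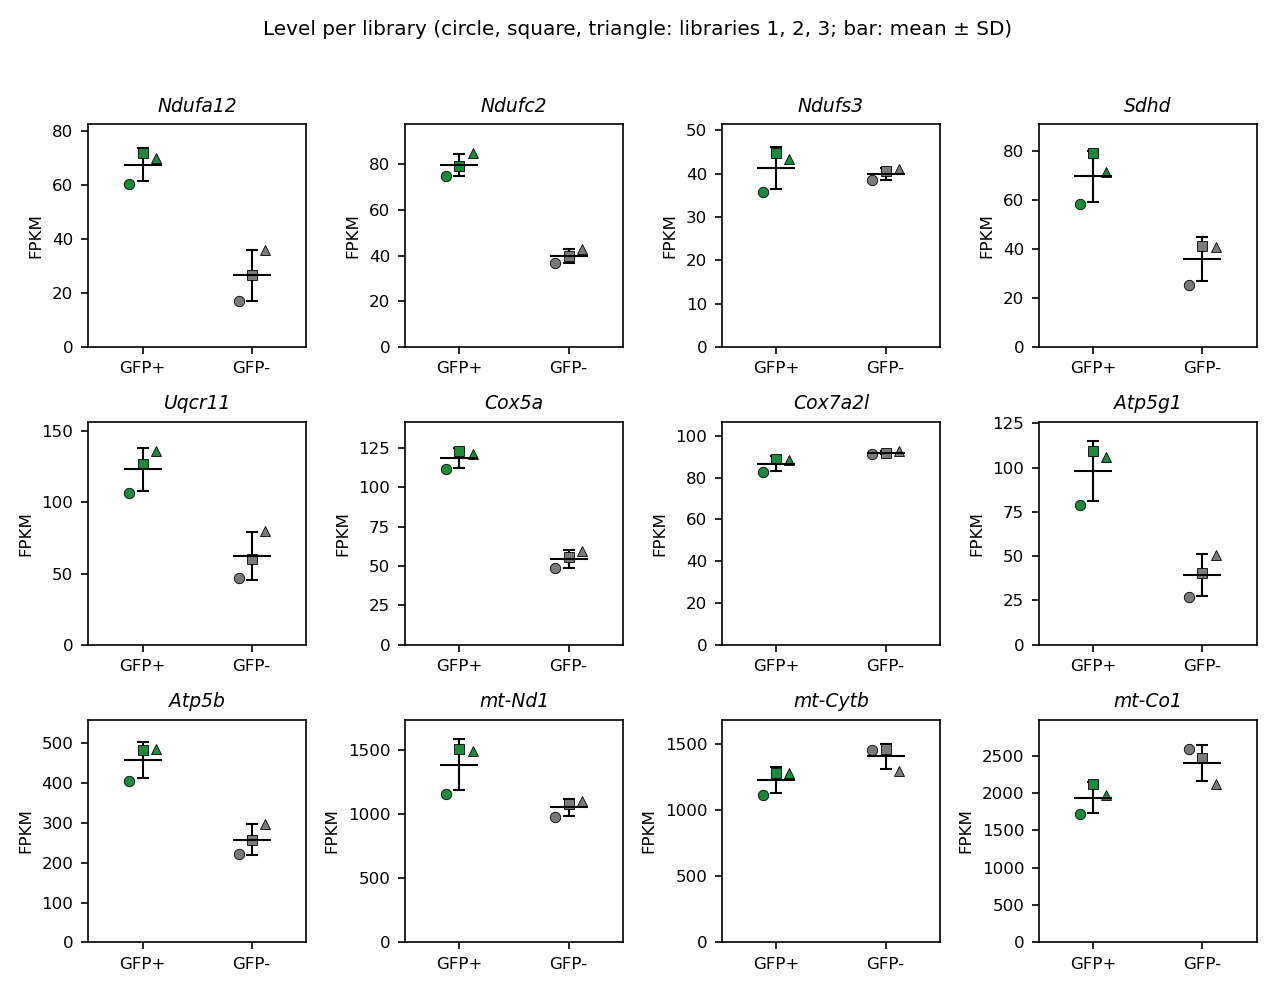
FPKM of 12 genes (y axes, each starting at 0) in libraries 1 to 3 of GFP-positive and GFP-negative cells, with the mean ± SD. Ndufa12, Ndufc2, Sdhd, Uqcr11, Cox5a, Atp5g1 and Atp5b have groups that do not overlap, Ndufs3 overlaps, and mt-Cytb and mt-Co1 are lower in GFP-positive libraries without a call.

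Complex V, the ATP synthase, had 14 of 15 nuclear subunits higher, with a median of 0.83. The 3 genes for the c subunit, Atp5g1, Atp5g2 and Atp5g3, encode the same mature protein of the rotating ring behind different import signals. Atp5g1 (chromosome 11, positions 96068852 to 96075670, minus strand) had 78.9, 109 and 106 FPKM in GFP-positive libraries, against 26.99, 40.4 and 50.6 FPKM in GFP-negative libraries (log2 fold change 1.34 ± 0.23; limma, adjusted p = 0.00163). Atp5g2, whose promoter is shown above, had 120.4, 150.3 and 161 FPKM in GFP-positive libraries, against 47.4, 66.5 and 76.03 FPKM in GFP-negative libraries (log2 fold change 1.19 ± 0.19; limma, adjusted p = 0.000917). Atp5g3, the most abundant of the 3 per length, had 205, 237 and 229 FPKM in GFP-positive libraries, against 108, 135 and 124 FPKM in GFP-negative libraries (log2 fold change 0.88 ± 0.13; limma, adjusted p = 0.000642). In each of the 3, GFP-negative library 1 was the lowest and no GFP-negative library reached the GFP-positive ones. Atp5l, a membrane subunit near the dimer interface, had a log2 fold change of 1.12, and Atp5o, the protein at the top of the peripheral stalk, one of 1.06. Atp5o overlaps other annotated genes, and its q in the authors' deposited table of 6 libraries was 0.104. Atp5l has 8 near-identical pseudogenes, so reads may have been split between them, and of its 2 pseudogenes among the members Atp5l-ps2 had 2.004, 1.90 and 2.999 FPKM in GFP-positive libraries and 0.924, 0 and 0.846 FPKM in GFP-negative libraries. That difference was called, but its q in the authors' deposited table of 6 libraries was 0.609. It lost its call without GFP-positive library 3 (log2 fold change 1.31), while Atp5l-ps1 was listed at 0.

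The F1 head of the enzyme, which makes the ATP, rose in 5 of 5 genes with a median of 0.81. Atp5b, the catalytic beta subunit, was the most abundant nuclear member, at 406, 481 and 486 FPKM in GFP-positive libraries against 221, 257 and 296 FPKM in GFP-negative libraries (log2 fold change 0.83 ± 0.14; limma, adjusted p = 0.00145). The groups did not overlap, although quantile normalization brought its log2 fold change down to 0.24, which was not called. Its partner Atp5a1 had a log2 fold change of 0.73, and the central stalk genes Atp5c1, Atp5d and Atp5e had 0.63, 0.81 and 0.87. In the peripheral stalk Atp5f1 had 0.72, Atp5j 0.52 (0.46 and 0.51 and not called without GFP-positive library 2 and 3) and Atp5h 0.42. Atp5h just missed the threshold (limma, adjusted p = 0.0522) with groups that did not overlap, and was called in 6 of 17 alternatives.

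Assembly factors, which build complexes without staying in them, went both ways. Of 9 among the members, 4 rose and 1 fell, or 44.4% and 11.1%, where 24.4% of all genes tested were called higher and 29.8% lower. Ndufaf6, a factor needed early for the membrane arm, had 4.70, 9.45 and 4.33 FPKM in GFP-positive libraries, against 1.03, 2.35 and 2.25 FPKM in GFP-negative libraries (log2 fold change 1.46 ± 0.34; limma, adjusted p = 0.00656). GFP-positive library 2 lay well above the others of its group, and the groups did not overlap. Ndufaf2, a relative of Ndufa12 that leaves complex I at its last step, had a log2 fold change of 1.09, Ndufaf7, an arginine methyltransferase, one of 1.06, and Ndufaf4 one of 1.0. Ndufaf1, Ndufaf5 and Ndufaf3 were not called, with 0.50, 0.23 and -0.30. Atp5sl, which despite its name assembles the distal membrane arm of complex I and is now called DMAC2, fell to 7.94, 8.57 and 9.09 FPKM in GFP-positive libraries, against 14.9, 11.8 and 11.01 FPKM in GFP-negative libraries (log2 fold change -0.52 ± 0.15; limma, adjusted p = 0.015). The groups were apart, with GFP-negative library 1 highest, and in the authors' deposited table of 4 libraries, fitted the same way, the log2 fold change was -0.43 and not called. Atp5s, a coupling factor of the ATP synthase, lay near the minimum for testing and was not called (-0.024).

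The 13 mitochondrial mRNAs, counted here by gene, showed no common direction. Of the 11 that could be tested, 1 was called higher and 2 lower, where 24.4% of all genes tested were called higher and 29.8% lower, and their median log2 fold change was -0.20. The 2 called lower were the neighbours mt-Nd4 and mt-Nd4l. Their annotated positions overlap by a few bases on the same strand, as mt-Nd4l ends at 10173 and mt-Nd4 starts at 10167. Fragments over that overlap may count for both, so they may not be separate observations. Without those that have a full-length copy in the nuclear genome, described next, 1 of 8 was called higher and 1 lower with a median of -0.067, and without mt-Atp8 as well the median was 0.062 over 7 genes. The 3 calls among the 11 were weak: 0 remained without the filter on low values or with limma without trend and robust, and the count ran from 0 to 6 as single libraries were left out, with 6 (1 higher and 5 lower) without GFP-negative library 3, 1 without GFP-positive library 1 or GFP-negative library 1, and 0 without GFP-positive library 2 or 3 or GFP-negative library 2. In the authors' deposited table of 4 libraries, fitted the same way, 3 were called higher and 0 lower, with a median of 0.01. There 2155 of all 11406 genes tested were called higher and 2660 lower.

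Before their values, a nuclear copy of the mitochondrial genome has to be described, because its bases are those of several of these genes. On chromosome 1, minus strand, positions 24611535 to 24616197 of GRCm38 hold a row of 7 annotated pseudogenes that repeat the mitochondrial genes from mt-Co1 to mt-Nd4. The pseudogenes of mt-Co2, mt-Atp6, mt-Co3, mt-Nd3 and mt-Nd4l are full copies without 1 mismatch in the bases aligned, that of mt-Nd4 is identical over 876 of the 1378 bases of the gene, and that of mt-Co1 differs from the end of the gene at 1 of 483 bases. The first 60 bases of mt-Co2 (chrM:7013-7072) are printed with those of its copy Gm28661 (chr1:24615506-24615565, minus strand), followed by 60 bases of mt-Co1 (chrM:6390-6449) with those of Gm29216 (chr1:24616129-24616188, minus strand). The capital marks the single base that differs. mt-Atp8 has no annotated copy, but its place is between mt-Co2 and mt-Atp6, whose starts lie 914 bases apart on both chromosomes, so by position its 204 bases fall inside the same stretch. The last 43 are shared with mt-Atp6 and are thus part of an identical copy, and the rest was not compared with chromosome 1.
mt-Co2: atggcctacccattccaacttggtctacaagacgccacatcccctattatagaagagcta
Gm28661: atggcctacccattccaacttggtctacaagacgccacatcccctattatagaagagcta
mt-Co1: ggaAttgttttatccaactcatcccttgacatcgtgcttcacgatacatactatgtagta
Gm29216: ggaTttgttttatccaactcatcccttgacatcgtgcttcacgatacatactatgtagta

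Deposited levels were far apart between the genes. The 5 with a full-length annotated copy were listed at 0.46 to 29.7 FPKM over all libraries, while the other 8 mitochondrial mRNAs stood at 436 to 8073 FPKM. The pseudogenes on chromosome 1 had at most 1.46 FPKM in any library. The sources used here do not state how fragments that match both places were treated, and the part of the copy in these levels was not tested. mt-Atp8, which lies in the stretch by position only, had the highest level. Its bases outside those shared with mt-Atp6 were not compared with chromosome 1. The levels and fold changes of mt-Co2, mt-Co3, mt-Atp6, mt-Nd3 and mt-Nd4l are uncertain, and so are those of mt-Atp8, and mt-Co2 and mt-Co3 lay below the minimum for testing.

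**Figure D3:**
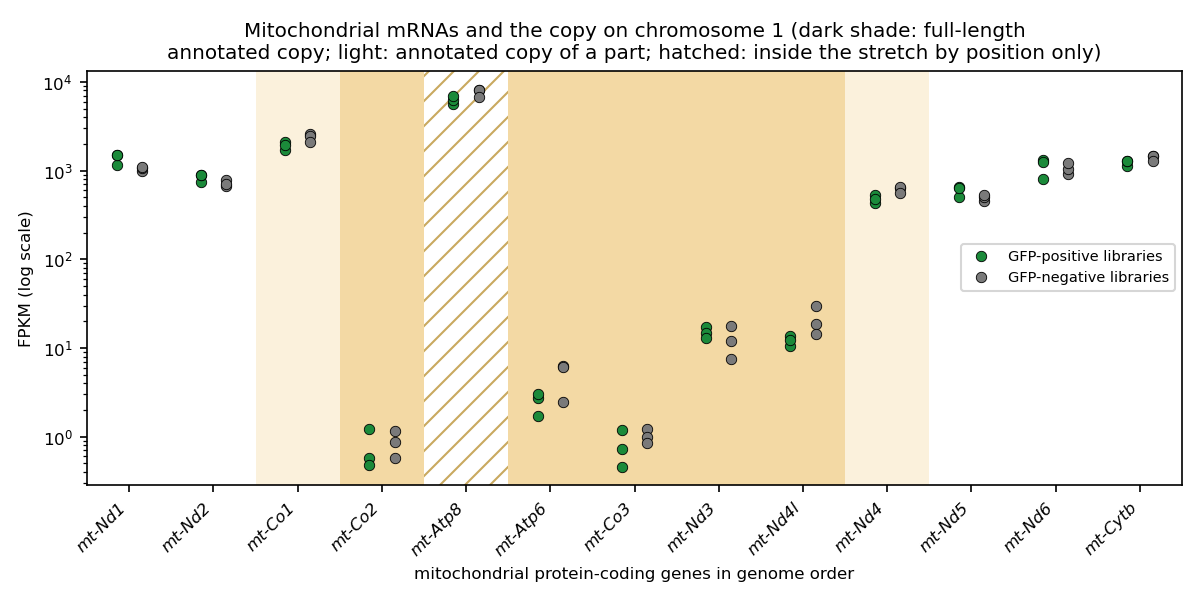
FPKM (y axis, log scale) of the 13 mitochondrial mRNAs in genome order (x axis) in 3 GFP-positive and 3 GFP-negative libraries. Dark shading marks the 5 genes with a full-length annotated copy on chromosome 1, all at 29.7 FPKM or less, light shading the 2 with an annotated copy of a part, and hatching mt-Atp8, inside the copied stretch by position only; the 8 genes without a full-length annotated copy lie at 436 FPKM or more.

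The 8 genes without a full-length annotated copy had fold changes of both signs, also among the subunits of complex I. The call of a rise was that of mt-Nd1, the quinone-side membrane subunit of complex I, with 1159, 1508 and 1489 FPKM in GFP-positive libraries against 977, 1081 and 1101 FPKM in GFP-negative libraries (log2 fold change 0.39 ± 0.14; limma, adjusted p = 0.0472). GFP-positive library 1 was close to the GFP-negative libraries, and the call was lost in 7 of 17 alternatives, among them the fits without GFP-positive library 2 or 3 or GFP-negative library 1 or 2 (log2 fold change 0.32, 0.33, 0.33 and 0.41) and quantile normalization (0.20). mt-Nd2 had 751, 883 and 882 FPKM in GFP-positive libraries and 669, 792 and 700.2 FPKM in GFP-negative libraries (log2 fold change 0.22 ± 0.13; limma, adjusted p = 0.185), and mt-Nd5 had 498, 645 and 629.7 FPKM in GFP-positive libraries and 452, 502 and 533 FPKM in GFP-negative libraries (log2 fold change 0.25 ± 0.14; limma, adjusted p = 0.168). Both encode proton-pumping subunits, their groups overlapped, and quantile normalization turned both signs (-0.39 and -0.46). mt-Nd6, the gene read from the other strand, had 806, 1304 and 1256 FPKM in GFP-positive libraries and 913, 1042 and 1220 FPKM in GFP-negative libraries (log2 fold change 0.062 ± 0.20; limma, adjusted p = 0.817), with full overlap and a sign that turned in 4 alternatives. It overlaps mt-Nd5 on the opposite strand, and the sources used here do not state whether strand was used in counting.

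Lower values in GFP-positive cells were seen for mt-Nd4, another pumping subunit, with 436, 529 and 476 FPKM in GFP-positive libraries against 644, 655 and 553 FPKM in GFP-negative libraries (log2 fold change -0.36 ± 0.13; limma, adjusted p = 0.0424). This call was lost in 10 of 17 alternatives, including every fit without 1 library except that without GFP-negative library 3 (log2 fold change -0.30 to -0.43) and the 4-library table, where the log2 fold change was -0.09. Part of the gene lies in the copy. mt-Cytb, the cytochrome b of complex III, had 1119, 1286 and 1285 FPKM in GFP-positive libraries and 1460, 1466 and 1298 FPKM in GFP-negative libraries (log2 fold change -0.20 ± 0.13; limma, adjusted p = 0.221). mt-Co1, the catalytic subunit of complex IV, had 1720, 2126 and 1968 FPKM in GFP-positive libraries and 2592, 2469 and 2127 FPKM in GFP-negative libraries (log2 fold change -0.31 ± 0.14; limma, adjusted p = 0.0992). As for 4 of the 11 tested mitochondrial mRNAs, against 35.1% of all genes, the GFP-positive values of both all lay below the GFP-negative ones, by a small margin to GFP-negative library 3, and for mt-Co1 the difference without that library was called (-0.39). mt-Atp8, a short subunit of complex V, had the highest level of all members, 5582, 6274 and 6937 FPKM in GFP-positive libraries and 8053, 8073 and 6724 FPKM in GFP-negative libraries (log2 fold change -0.28 ± 0.15; limma, adjusted p = 0.141); it shares 43 bases with mt-Atp6, its sign turned under quantile normalization (1.002) and without GFP-negative library 3 it was called lower (-0.37).

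Of the fully copied genes, mt-Nd4l was called lower, with 13.6, 10.5 and 12.3 FPKM in GFP-positive libraries against 29.7, 18.6 and 14.3 FPKM in GFP-negative libraries (log2 fold change -0.70 ± 0.24; limma, adjusted p = 0.037), and lost the call in 11 of 17 alternatives, including every fit without 1 library except that without GFP-negative library 3 (log2 fold change -0.42 to -0.78). mt-Atp6 had 2.76, 3.06 and 1.70 FPKM in GFP-positive libraries and 6.34, 6.05 and 2.48 FPKM in GFP-negative libraries (log2 fold change -0.80 ± 0.34; limma, adjusted p = 0.0778), and was called without GFP-negative library 3 (-1.18). mt-Nd3 had 17.1, 14.8 and 12.98 FPKM in GFP-positive libraries and 17.9, 12.02 and 7.46 FPKM in GFP-negative libraries (log2 fold change 0.33 ± 0.28; limma, adjusted p = 0.348), and was called higher without GFP-negative library 1 (0.62). mt-Co2 had 0.576, 1.22 and 0.482 FPKM in GFP-positive libraries and 1.16, 0.882 and 0.578 FPKM in GFP-negative libraries, and mt-Co3 had 1.20, 0.461 and 0.726 FPKM in GFP-positive libraries and 1.21, 0.987 and 0.861 FPKM in GFP-negative libraries. These values are so far below those of their neighbours that they say little about the mRNAs. In the authors' deposited table of 6 libraries the q of mt-Nd4l, called lower above, was 0.742.

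Set side by side, the contributions of the genomes differed between the groups. The mean log2(FPKM + 0.5) level over the 74 nuclear subunits was 6.09, 6.26 and 6.29 in GFP-positive libraries 1 to 3, against 5.26, 5.55 and 5.65 in GFP-negative libraries 1 to 3. Over the 8 mitochondrial mRNAs without a full-length annotated copy it was 10.06, 10.38 and 10.36 in GFP-positive libraries and 10.27, 10.35 and 10.26 in GFP-negative libraries. The nuclear level minus the mitochondrial level was thus -3.97, -4.12 and -4.07 in GFP-positive libraries, against -5.00, -4.81 and -4.61 in GFP-negative libraries, with no overlap between the groups. The difference between the group means was 0.76 on the log2 scale, and it is a ratio within libraries, which no scaling between libraries by a factor alters; it is a description with no test. Over the 7 that remain without mt-Atp8 it was 0.72. A difference of median fold changes, over the same 8 mitochondrial mRNAs, was 0.82, and without mt-Atp8 it was 0.70. Over all 11 tested, the uncertain copied genes included, it was 0.95 in the 6-library table, 1.11 after quantile normalization and 0.64 in the 4-library table. Without GFP-negative library 3 it was 1.05, and without GFP-negative library 1 it was 0.83. In summed FPKM the nuclear subunits made up 6403 to 7394 in GFP-positive cells and 3519 to 4613 in GFP-negative cells. The 13 mitochondrial mRNAs made up 12107 to 14951 in GFP-positive cells and 14282 to 16120 in GFP-negative cells. Of this mitochondrial sum, mt-Atp8 alone held 5582 to 6937 FPKM in GFP-positive cells and 6724 to 8073 FPKM in GFP-negative cells. The level of mt-Atp8 is uncertain, and the sum without it was not taken. Total RNA was depleted of ribosomal RNA before sequencing, and the mitochondrial ribosomal RNAs could not be used as a check, since mt-Rnr1 carried the authors' HIDATA status and was listed at 0 in all GFP-negative libraries.

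Differences among complexes were smaller than that between the genomes. By median log2 fold change the nuclear subunits ran 0.91 for complex IV, 0.83 for complex V, 0.79 for complex II, 0.69 for complex III and 0.63 for complex I. The mean log2 level of complex IV subunits was 7.08 to 7.27 in GFP-positive libraries and 6.03 to 6.51 in GFP-negative libraries, and that of complex I subunits was 5.36 to 5.57 in GFP-positive libraries and 4.68 to 4.99 in GFP-negative libraries, so in these complexes, as in the others, the groups did not overlap. The difference between complexes was not tested, because genes of a complex are not replicates. Across the 74 subunits, which share libraries, log2 fold change had a Spearman rho of 0.31 with mean FPKM and of -0.03 with exon length, against 0.12 and -0.23 across 9881 nuclear protein-coding genes. The subunit genes are short, with a median exon length of 1737 bases against 4545.

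Genes that serve the chain without matching the rule on symbols gave a mixed picture. Of 14 genes of cytochromes c and c1, coenzyme Q synthesis and electron transfer flavoprotein tested, 9 rose and 1 fell, or 64.3% and 7.14%, where 24.4% of all genes tested were called higher and 29.8% lower. Cyc1, the complex III gene described above, is counted among the 9. Their median was 0.74. Coq7, a hydroxylase of a late step of coenzyme Q synthesis, had 9.30, 10.6 and 13.1 FPKM in GFP-positive libraries, against 3.74, 4.06 and 4.82 FPKM in GFP-negative libraries (log2 fold change 1.28 ± 0.17; limma, adjusted p = 0.000419). Cycs, the somatic cytochrome c, had a log2 fold change of 0.77, Etfb of 1.08 and Coq2 of 0.99. Etfdh, which hands electrons from the flavoprotein to coenzyme Q, had -0.30, a call lost in 13 of 17 alternatives, among them the omission of any library (-0.28 to -0.32).

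Assembly factors outside the rule are to be read against the same 24.4% higher and 29.8% lower of all genes tested. They included 8 of complex I, of which 4 rose and 1 fell (median 0.51): Foxred1 (0.83), Ecsit (0.74) and Acad9 (0.68) were higher, and Lyrm2 (-0.55; -0.47 and not called without GFP-positive library 2) was lower. Of 5 for complex III, 3 rose and 1 fell (median 0.56). Uqcc2, which helps to make and mature cytochrome b, had 36.8, 49.1 and 46.9 FPKM in GFP-positive libraries, against 9.67, 14.1 and 23.02 FPKM in GFP-negative libraries (log2 fold change 1.55 ± 0.29; limma, adjusted p = 0.00306), Bcs1l, which inserts the Rieske protein, had 1.13, and Ttc19, which clears its fragments, had -0.60. Of 20 for complex IV 8 rose, or 40.0%, and 0 fell (median 0.25), led by the copper carriers Cox17 (0.86) and Sco2 (0.78). Of 6 further complex V genes 4 rose, among them Atpif1, the inhibitor of ATP hydrolysis (0.92). The 1 complex II factor tested, Sdhaf2, was not called (-0.30).

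Factors that copy, transcribe and process mitochondrial DNA rose in 9 and fell in 1 of 24 cases, or 37.5% and 4.17%, against 24.4% higher and 29.8% lower among all genes tested, with a median of 0.39. Lrpprc, which stabilises mitochondrial mRNAs, had 21.4, 28.02 and 27.3 FPKM in GFP-positive libraries, against 10.4, 11.1 and 17.3 FPKM in GFP-negative libraries (log2 fold change 0.98 ± 0.20; limma, adjusted p = 0.00321), and Tfam, which packages mitochondrial DNA and starts its transcription, had 0.40. Polg, the catalytic subunit of the mitochondrial DNA polymerase, went the other way, with 18.9, 17.5 and 20.8 FPKM in GFP-positive libraries against 48.6, 37.4 and 34.7 FPKM in GFP-negative libraries (log2 fold change -1.04 ± 0.15; limma, adjusted p = 0.000551). The groups lay well apart for Polg, with GFP-negative library 1 the highest. The RNA polymerase Polrmt was not called (0.21).

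Of 9 known regulators of respiratory genes tested, 2 rose and 1 fell, or 22.2% and 11.1%, with a median of -0.03; the share that rose was close to the 24.4% called higher among all genes, and 29.8% of all genes were called lower. Myc rose (1.91) and so did Pprc1, a growth-linked coactivator of NRF1, with 25.5, 34.5 and 31.1 FPKM in GFP-positive libraries against 11.2, 10.3 and 15.1 FPKM in GFP-negative libraries (log2 fold change 1.29 ± 0.17; limma, adjusted p = 0.000439). Esrra, an orphan nuclear receptor that binds promoters of respiratory genes, fell to 3.49, 2.78 and 4.71 FPKM in GFP-positive libraries, against 8.66, 8.74 and 9.73 FPKM in GFP-negative libraries (log2 fold change -1.22 ± 0.19; limma, adjusted p = 0.000839). The factors whose letters were searched in the promoters were not called: Nrf1 had -0.31 (limma, adjusted p = 0.0717), Gabpa -0.037 and Yy1 0.024. Ppargc1a, the coactivator of mitochondrial growth in muscle and brown fat, stayed at or below 0.328 FPKM in every library.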

How the data were processed

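The libraries were prepared from rRNA-depleted total RNA of sorted DN4 thymocytes, per the labels' protocols. TopHat2, Cuffdiff and build mm10 were used, per the submitters' processing notes, which give no versions. The authors deposited FPKM per library and, per the file headers, p-values and q-values from Cuffdiff runs over 6 and over 4 libraries. In R 4.3.3, limma 3.58.1 (trended and robust eBayes) was fitted to log2(FPKM + 0.5), a scale that shrinks the changes of low genes, for genes averaging at least 1 FPKM, without 24 marked HIDATA. The p-values of all 11465 genes were adjusted together (Benjamini-Hochberg), with calls below 0.05. FPKM do not suit a count test, and none was run. The fit was tested on simulated data.

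Positions and overlaps came from GENCODE M21, which holds 40252 of the gene identifiers, and 27 symbols turned into dates were replaced. Pseudogenes with at least 95% identity over at least 200 bases were found with BLAST 2.17.0, and promoter windows came from RefSeq (GRCm38.p6). The NRF1 letters were chosen after a longer form of the site had been searched and its shares seen.

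The members and lists were chosen with earlier results of these data known. Named by rule were every mitochondrial mRNA, in each complex and role up to 4 called genes per direction by size of change, the 2 most abundant genes where none was called, the isoform families and up to 4 called genes per direction of each further list. 1 tested subunit is counted but not reported singly here. The other remaining subunits, the regulators not called, Polrmt and Sdhaf2 were named after their values were seen. As alternatives the fit was repeated with pseudocounts of 0.1 and 1, without a filter, with a minimum of 5 FPKM, quantile, upper quartile and median-ratio scaling, a plain eBayes step, the replicate number as a block, protein-coding genes only, the 4-library table, and with each library omitted. Chosen after seeing the data were summaries without copied mitochondrial genes (with and without mt-Atp8) and without members that overlap other genes or have near-identical pseudogenes.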

Additional observations from a re-analysis of the deposited data

How the results depend on the processing

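The median of the nuclear subunits stayed between 0.65 and 0.83 under all alternatives run, with 57 to 71 of 74 subunits called higher and 0 lower. In the main fit 24.4% of all genes tested were called higher and 29.8% lower. Leaving out 1 library at a time gave 63 to 79 called members, 5052 to 6130 called genes, subunit medians of 0.67 to 0.83, mitochondrial medians of -0.25 to -0.13, and 0 to 6 called mitochondrial mRNAs. That last count was also 0 without the filter on low values and 0 with limma without trend and robust. The mitochondrial median was -0.39 after quantile normalization and 0.01 in the 4-library table, where the nuclear minus mitochondrial difference was 1.11 and 0.64; it was 0.83 to 1.05 with 1 library left out. Without the mitochondrial mRNAs with a full-length annotated copy the median and the difference were -0.067 and 0.82, and without mt-Atp8 as well 0.062 and 0.70. Without members that overlap other genes or have near-identical pseudogenes, 38 of 49 were called, where 54.2% of all genes tested were called in either direction. The causes were not tested.

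With the replicate number as a block, limma called 6390 genes (2929 higher and 3461 lower), 81 members (77 and 4), 70 subunits higher and 4 mitochondrial mRNAs. Deviations of same-numbered libraries correlated at 0.094, -0.021 and 0.061, so the numbers are not shown to pair the libraries, and not every library correlated best with its own number.

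Signs turned only for genes that were not called. Under quantile normalization mt-Nd2 had -0.39, mt-Atp8 1.002, mt-Nd5 -0.46, mt-Nd6 -0.28, Atp5s 0.41 and Gabpa 0.017, and mt-Nd2 and mt-Nd5 were then called lower. Under upper quartile and median-ratio scaling Atp5s had 0.014 and 0.0093, and Gabpa 0.022 and 0.015. In the 4-library table mt-Cytb had 0.011, Cox6b2 -0.094, Ndufs4 -0.0051, Atp5s 0.10, Gabpa 0.0082 and Yy1 -0.10. With 1 library left out, mt-Nd6 ran from -0.063 to 0.28, Cox6b2 from -0.26 to 0.30, Ndufs3 from -0.018 to 0.14, Atp5s from -0.21 to 0.19, Gabpa from -0.10 to 0.036 and Yy1 from -0.042 to 0.071. Over the single genes examined, 2068 fits kept direction and call, 98 lost a call, 41 gained one and 28 turned sign. The number of reads behind each FPKM is unknown, so precision at low levels, such as those of Cox7a1, Atp5s and the copied mitochondrial genes, cannot be stated.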
